A study of Mus musculus with 8 samples.

Results

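The clustered protocadherins are cell surface proteins of the cadherin family, encoded side by side on mouse chromosome 18 in the alpha, beta and gamma clusters. Every gene whose symbol follows the naming of these clusters was taken from the count table, which gave 57 of 55353 entries: 13 in the alpha cluster, 22 in the beta cluster and 22 in the gamma cluster. The libraries came from primary smooth muscle cells grown from mouse aorta, in 4 genotypes with 2 RNA extractions each. E12 WT and E12 KO were wild type and knockout for E12, and E47 WT and E47 KO were wild type and knockout for E47. E12 and E47 are protein isoforms of Tcf3, a basic helix-loop-helix transcription factor, made by a choice between neighbouring exons. All 8 libraries were made from cells revived from frozen stock and lysed in Trizol, with polyA selection and no record of strand. The sources used here do not give how the knockouts were made, the age of the mice, or whether the extractions of a genotype came from separate animals or cultures. P-values therefore set the difference between genotypes against the spread between extractions. That spread may be technical alone, and a genotype may stand for 1 cell population. The family was selected on measured values: the high levels of Pcdhga11 and Pcdhga4 in the E12 knockout were known when it was chosen. The E12 comparison is therefore given as levels, ratios, fitted log2 changes and the order of libraries, with no test. A few of its values carry an SE or a counting interval, and these are descriptions only.

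In the alpha and gamma clusters, each gene has its own large variable exon behind its own promoter, and this exon is spliced to 3 constant exons that all genes of the cluster share. The beta genes have no constant exons. In neurons, each cell is known to use a few of these promoters, chosen largely at random with the help of CTCF and cohesin loops, and the proteins recognise copies of themselves on neighbouring cells. The C-type genes (Pcdhac1, Pcdhac2, Pcdhgc3, Pcdhgc4 and Pcdhgc5) lie at the end of their clusters and are known for a more uniform use than the others. They are studied mainly in the nervous system.

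In the GRCm38 build the alpha cluster ran from 36930184 to 37187661 on chromosome 18, the beta cluster from 37264938 to 37524479 and the gamma cluster from 37661793 to 37841873, all on the plus strand, with positions from GENCODE M21. The 3 constant exons measured 59, 89 and 2712 bp in alpha and 59, 89 and 1968 bp in gamma. Because these exons belong to every gene of a cluster, the number of exon bases that no other annotated gene covers was computed for each gene, and is called its own exon length here. Its median was 2478 bp in alpha, 3714 bp in beta and 2587 bp in gamma. Gm42416, Gm37013, Gm37388 and Gm38182, whose annotated exons lie wholly within those of cluster genes on the same strand, had 0 counts in all 8 libraries. Pcdhga10, which has 0 bp of its own, had at most 1 count in any library. Genes without bases of their own were thus at or near 0, and the settings used for counting are unknown. Such counts do not show whether these genes were used. The antisense gene Gm26672 overlaps exons of Pcdhga10, Pcdhgb7, Pcdhga11 and Pcdhga12. Beside it Pcdhga11 has 1256 bp and Pcdhgb7 1823 bp of its own. Pcdhgc3 has 1821 bp of its own because of the antisense gene BC037039. Some first exons also share sequence: over 5% of all 100-bp windows of the exon occurred identically in another of the 57 genes for 7 alpha, 2 beta and 2 gamma genes. The beta pair was Pcdhb21 and Pcdhb22, whose annotated exons overlap on the chromosome, so their shared windows lie on the same 455 genomic bases. The gamma pair was Pcdhgb1 and Pcdhgb2. With 50-bp windows 11 alpha, 10 beta and 6 gamma genes passed 5%, among them Pcdhgb4 (10.4%), Pcdhgb5 (11.6%) and Pcdhgb6 (11.9%). The split of reads between such genes is uncertain. The neighbours Pcdhgb1 and Pcdhga4 also have more shared exon bases (3154 and 3157 bp) than the constant exons hold. Pcdhga4 is left with 1570 bp of its own. Reads over shared bases cannot be assigned to 1 gene.

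Library totals ran from 13909230 to 27517374 counts, and 0 counts in a library allows a level of up to between 0.117 and 0.224 CPM (counts scaled to library size). Tcf3 had 109 and 107 CPM in E12 WT, 145 and 143 in E12 KO, 94.5 and 93.7 in E47 WT, and 128.0 and 127.7 in E47 KO, and a count over the whole gene does not separate the E12 and E47 exons. Smooth muscle Acta2 was high in every genotype, at a mean of 1953 CPM in E12 WT, 1638 in E12 KO, 3566 in E47 WT and 2108 in E47 KO. Myh11 and Cnn1, which mark the contractile state, had means of 98.2 and 103 CPM in E47 WT, and no other genotype had a mean above 7.44 and 19.8 CPM. E47 WT stood apart in other cell type markers as well. The summed level of 6 endothelial markers was 450 to 472 CPM in E47 WT and 3.21 to 9.12 CPM in the other libraries. The summed level of 6 mesothelial markers was 86.5 to 89.1 CPM in E47 WT, 334 to 354 in E47 KO, 689 to 700.0 in E12 KO and 1069.6 to 1170.1 in E12 WT. Of 12 neuron markers, Rbfox3, Snap25, Elavl4, Nefl and Dcx had 0 counts in all 8 libraries, while Map2 had 80.4 to 260.1 CPM, Tubb3 22.5 to 113 CPM and Syt1 0.215 to 7.77 CPM. In bulk samples fewer cells of a type and less RNA per cell cannot be told apart, and this holds for every level below.

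A gene was called detected in a genotype when both libraries had more than 3 counts. By this rule 30 of the 57 genes were detected in E12 WT, 38 in E12 KO, 36 in E47 WT and 39 in E47 KO. The clusters differed widely. In the alpha cluster 0 genes were detected in E12 WT, 1 in E12 KO, and 0 in both E47 genotypes. In the beta cluster the numbers were 11, 19, 15 and 18 of 22, and in the gamma cluster 19, 18, 21 and 21 of 22, in the same order. All 4 genotypes shared 17 of 22 gamma genes and 11 of 22 beta genes, and 9 beta genes were detected in some genotypes only. The count limit matters for both clusters. With at least 10 counts in both libraries, 13, 12, 20 and 16 gamma genes were detected in E12 WT, E12 KO, E47 WT and E47 KO, and 9 in all 4. For beta the numbers were 9, 14, 10 and 13 in the same order, with 9 genes in all 4 genotypes and 5 in some only. Pcdhga10 was detected in none, but it has no exon bases of its own, so its low counts do not show whether it was used. Other gamma genes below the limit of more than 3 counts were Pcdhga12 in both E12 genotypes, Pcdhga11 in E12 WT, and Pcdhga8 and Pcdhgb8 in E12 KO. Each had some counts in both libraries there. With at least 1 count in both libraries, 21 of 22 gamma genes were detected in E12 WT and 21 in E12 KO.

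**Figure D1:**
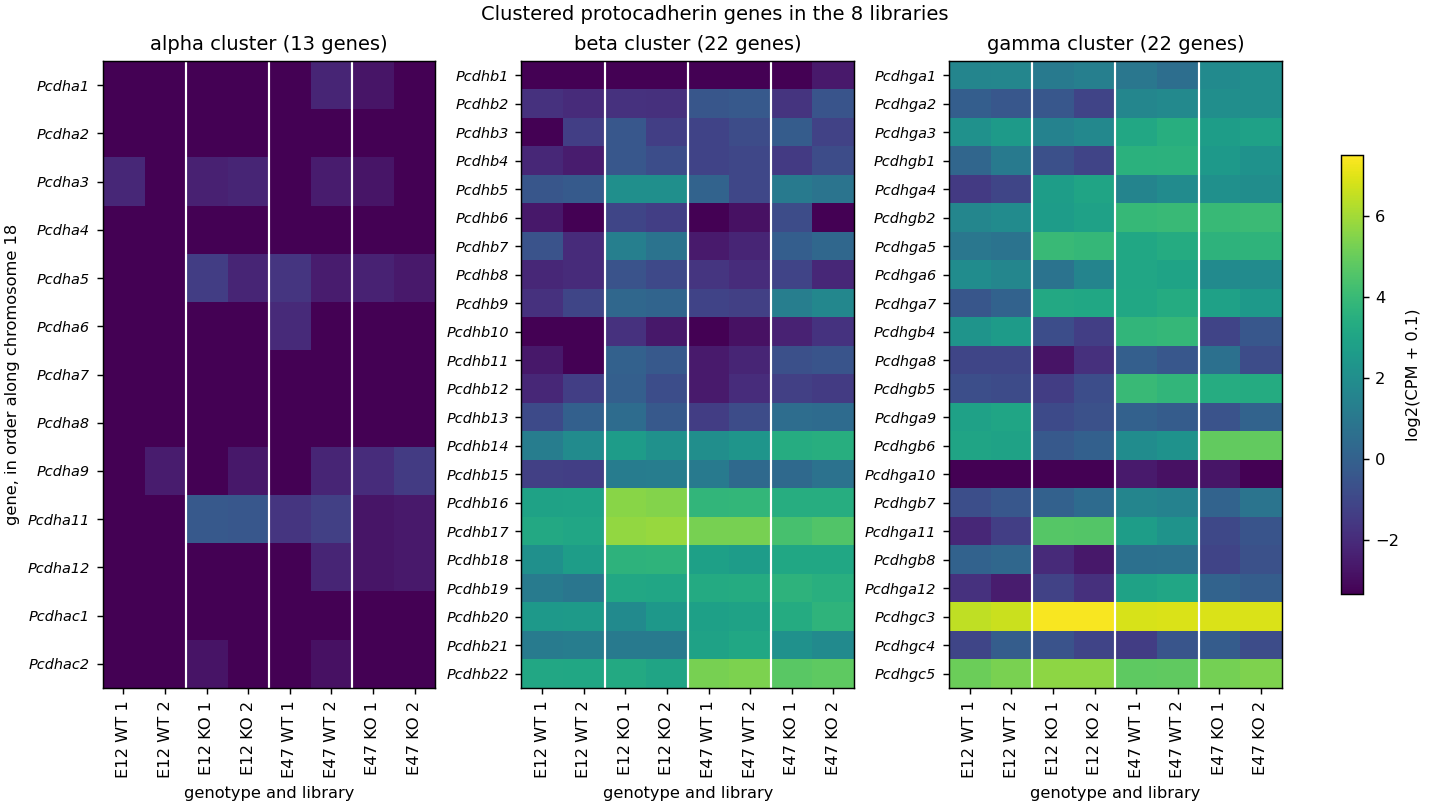
Level of each clustered protocadherin gene (rows, in order along the chromosome) in each of the 8 libraries (columns), as log2 of CPM plus 0.1. The alpha panel is near the lower end throughout, Pcdhgc3 and Pcdhgc5 are high in every library, and Pcdhga11, Pcdhgb4, Pcdhgb6 and Pcdhga9 change colour from genotype to genotype while the libraries of a genotype look alike.

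The alpha cluster was close to silent. All 13 genes together had 2 and 1 counts in E12 WT, 24 and 16 in E12 KO, 8 and 22 in E47 WT, and 9 and 7 in E47 KO. Pcdha2, Pcdha4, Pcdha7, Pcdha8 and the C-type gene Pcdhac1 had 0 counts in all 8 libraries. The other C-type gene, Pcdhac2, had 2 counts over all libraries. Pcdha11 carried most of the E12 KO signal, with 0 and 0 counts in E12 WT and 15 and 11 in E12 KO, which made it at least 6.74-fold higher in E12 KO when 3 counts are allowed over the wild-type group. In E47 WT it had 3 and 8 counts against 1 and 1 in E47 KO, a ratio of wild type to knockout of 4.75 with a 95% exact binomial counting interval from 1.04 to 44.1. The symbol Pcdha11 belongs to 2 neighbouring genes in GENCODE M21, so these counts may join both. It was the one alpha gene with enough counts to enter the test, and its E47 call (edgeR adjusted p = 0.048) was lost in 10 of the 11 alternatives that tested it, among them each omission of a library (edgeR adjusted p from 0.067 to 0.30).

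**Figure D2:**
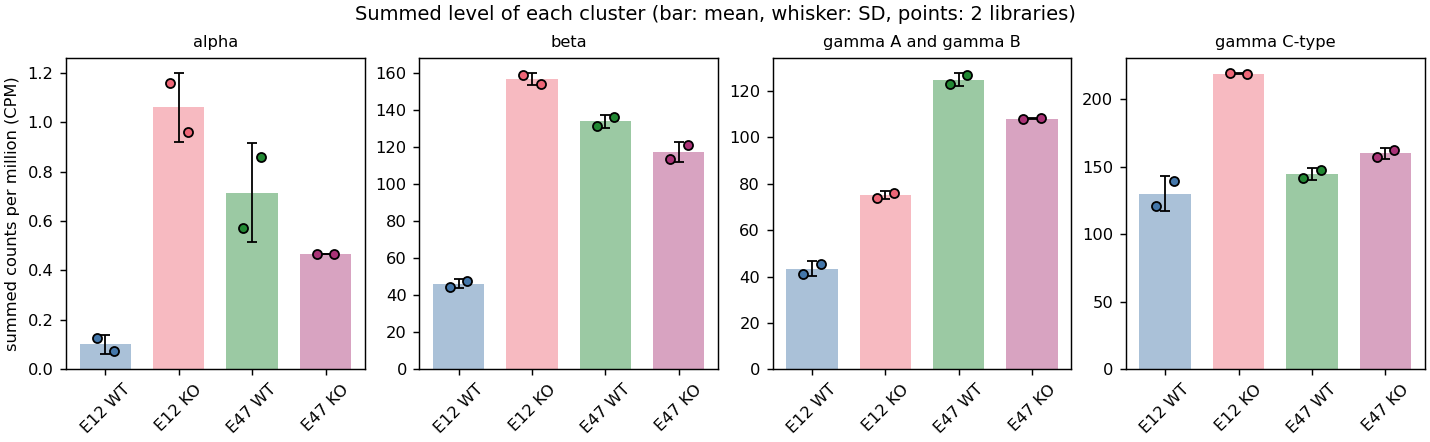
Summed CPM of the alpha genes, the beta genes, the gamma A and gamma B genes, and the gamma C-type genes in each genotype, where bars are means of 2 libraries, whiskers SD and points the libraries. Each panel has its own linear axis from 0. E12 WT is lowest in all 4 panels, and E47 WT is highest for gamma A and gamma B at 125 CPM.

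The beta cluster made a larger contribution. The summed level of its 22 genes was 44.7 and 48.0 CPM in E12 WT, 159 and 154 in E12 KO, 132 and 137 in E47 WT, and 114 and 121 in E47 KO. The E12 knockout libraries were thus 3.38-fold above their wild type on the mean, and the E47 knockout libraries were slightly below theirs, at a ratio of 0.878. With 2 libraries against 2, an exact permutation test cannot give a p below 0.333, so no test is read from these totals. The gamma cluster held 173 ± 16.0 CPM in E12 WT, 294 ± 1.09 in E12 KO, 269.5 ± 7.55 in E47 WT and 268 ± 4.09 in E47 KO (SD, n = 2). Its total in the E47 knockout differed from the wild type by less than the spread between libraries, while its members moved in both directions.

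The C-type genes gave most of the gamma signal. Together they held 74.9% ± 0.556 of gamma counts in E12 WT, 74.5% ± 0.452 in E12 KO, 53.7% ± 0.23 in E47 WT and 59.7% ± 0.532 in E47 KO (SD, n = 2). Per kb of own exon, Pcdhgc3 was the highest of all 57 genes in every genotype, at 50.9 CPM per kb in E12 WT, 92.0 in E12 KO, 63.6 in E47 WT and 65.5 in E47 KO. By library Pcdhgc3 had 87.0 and 98.5 CPM in E12 WT, 168 and 167 in E12 KO, 113 and 118 in E47 WT, and 119.1 and 119.6 in E47 KO. The E12 KO libraries were the highest of the 8, and the E47 ranges, although apart, were close. For the E47 knockout the log2 change of Pcdhgc3 was 0.04 (SE 0.0717, edgeR adjusted p = 0.64). BC037039, which overlaps it on the other strand, had between 3 and 37 counts in a library and cannot be told apart from it on shared bases. Pcdhgc5 had 33.4 and 39.8 CPM in E12 WT, 50.6 and 51.2 in E12 KO, 27.9 and 29.0 in E47 WT, and 37.4 and 42.6 in E47 KO. Both E47 knockout libraries lay above both wild-type libraries, and Pcdhgc5 rose by 0.48 on the log2 scale (SE 0.0937, edgeR adjusted p = 0.00049). Pcdhgc4 stayed below 1 CPM in all 8 libraries, with an E47 log2 change of 0.35 (SE 0.514, edgeR adjusted p = 0.59).

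**Figure D3:**
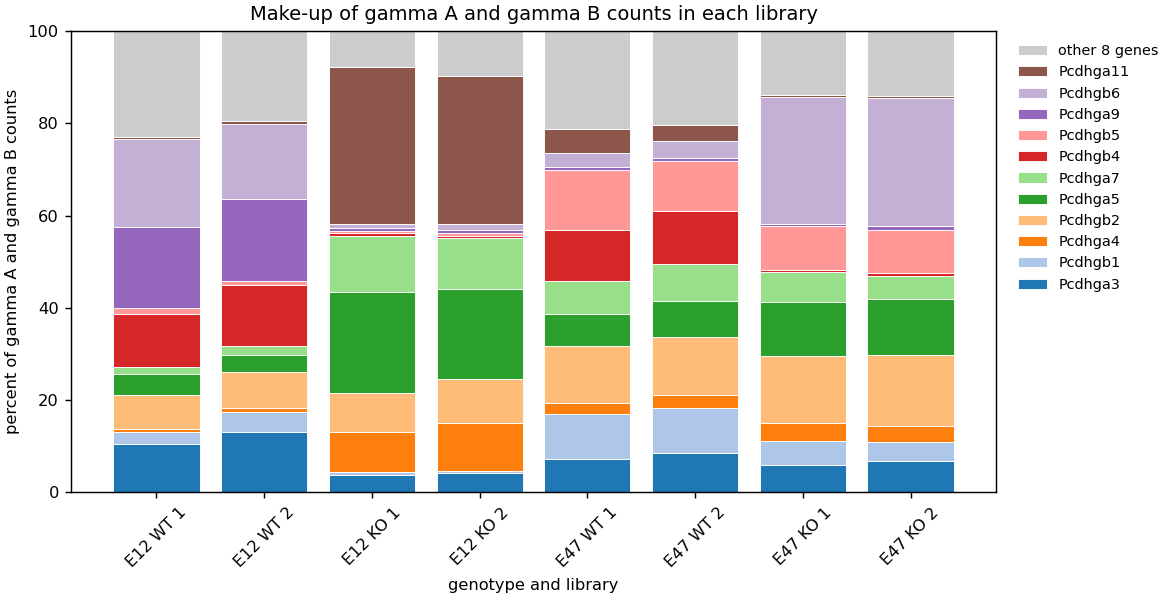
Share of gamma A and gamma B counts on each of 11 genes and on the other 8 together, in percent, for each library. Within a genotype the stacks of both libraries nearly match. Pcdhga11 fills 33.9% and 32.3% of the E12 KO stacks, and Pcdhgb6 27.6% and 27.7% of the E47 KO stacks.

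The gamma A and gamma B genes, 19 in all, showed a different make-up in each genotype. In E12 WT the largest shares of their counts fell on Pcdhgb6 (17.7% ± 2.08) and Pcdhga9 (17.7% ± 0.0602), followed by Pcdhgb4 (12.3% ± 1.19) and Pcdhga3 (11.7% ± 1.73). In E12 KO these 4 held 1.08%, 0.649%, 0.524% and 3.92%, and Pcdhga11 (33.1% ± 1.16), Pcdhga5 (20.7% ± 1.6) and Pcdhga7 (11.7% ± 0.764) led instead. E47 WT had no dominant gene: Pcdhgb2 (12.5% ± 0.0399), Pcdhgb5 (11.97% ± 1.38) and Pcdhgb4 (11.3% ± 0.228) were the largest by counts. Per own exon length the largest there were Pcdhgb2 (12.2%), Pcdhgb1 (9.99%) and Pcdhga11 (9.52%). In E47 KO, Pcdhgb6 (27.7% ± 0.0933) was largest, followed by Pcdhgb2 (14.9% ± 0.613) and Pcdhga5 (11.98% ± 0.259), all SD with n = 2. The evenness of the shares was summarised as an effective number of genes, the exponential of the Shannon entropy, which equals 19 when all genes are used alike. It was 11.1 ± 0.137 in E12 WT, 7.52 ± 0.319 in E12 KO, 13.8 ± 0.097 in E47 WT and 10.1 ± 0.0322 in E47 KO. From counts per own exon length, which leaves out Pcdhga10, it was 11.7, 5.66, 14.4 and 10.2 in the same order. Per kb of own exon the leading gene was Pcdhgb6 in E12 WT (2.98 CPM per kb), Pcdhga11 in E12 KO (19.8), Pcdhgb2 in E47 WT (5.65) and Pcdhgb6 in E47 KO (11.7). The summed level of gamma A and gamma B genes was 43.4 ± 3.05 CPM in E12 WT, 75.0 ± 1.61 in E12 KO, 125 ± 2.88 in E47 WT and 108 ± 0.224 in E47 KO.

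The E47 knockout was compared with its wild type by edgeR's quasi-likelihood test, with p-values adjusted by the Benjamini-Hochberg method over all 13992 genes tested. Of the 57 protocadherin genes 37 had enough counts to be tested: 1 alpha, 15 beta and 21 gamma. Of these, 12 rose, 15 fell and 10 did not pass an adjusted p of 0.05. Calls were common in this comparison, at 55.2% of all genes tested (27.7% higher, 27.5% lower), so the share of members called, 73.0%, was read against that figure. Called changes of more than 2-fold were found for 17 of the 37, against 14.9% of all genes tested. Both knockout libraries lay above both wild-type libraries for 16 of the 37 (39.2% of all genes tested) and below both for 15 (38.5%), and 6 overlapped. The median log2 change was 0.04 over the 37 genes and 0.01 over all genes. The 37 are those that passed a filter on low counts, which a gene can pass through the genotype in which it is high. The levels of endothelial and mesothelial markers given above moved with this comparison: 6 of 6 endothelial markers fell, 7 of 8 smooth muscle markers fell and 5 of 5 tested mesothelial markers rose. Their part in the changes of the protocadherin genes was not tested.

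Among gamma B genes, which have variable exons interleaved with those of gamma A, 1 of 7 rose and 5 fell. The shares over all genes tested were 27.7% and 27.5%. Pcdhgb6 had 3.72 and 4.52 CPM in E47 WT and 29.8 and 30.0 in E47 KO, beside 7.91 and 7.40 in E12 WT and 0.724 and 0.901 in E12 KO. The E47 KO libraries were the highest of all 8 and the E12 KO libraries the lowest. Pcdhgb6 rose by 2.82 on the log2 scale in the E47 knockout (SE 0.121, edgeR adjusted p = 5.2e-11). Pcdhgb4 moved the other way, from 13.7 and 14.5 CPM in E47 WT to 0.364 and 0.668 in E47 KO. It had 4.72 and 5.98 CPM in E12 WT and 0.483 and 0.300 in E12 KO, so both wild types were high and both knockouts were below 1 CPM. It fell in the E47 knockout, with a log2 change of -4.81 (SE 0.245, edgeR adjusted p = 3.8e-10). Pcdhgb1 had 11.9 and 12.3 CPM in E47 WT, 5.56 and 4.41 in E47 KO, and no more than 2.02 in any E12 library. Its E47 log2 change was -1.26 (edgeR adjusted p = 1.9e-05). Pcdhgb8 fell as well, with 1.504 and 1.52 CPM in E47 WT and 0.364 and 0.535 in E47 KO, a log2 change of -1.77 (edgeR adjusted p = 0.0011).

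Pcdhgb5 separated the E12 cells from the E47 cells. It had 15.9 and 14.0 CPM in E47 WT and 10.3 and 10.1 in E47 KO, and between 0.290 and 0.510 CPM in the 4 E12 libraries. Its E47 log2 change was -0.54 (SE 0.124, edgeR adjusted p = 0.0019), and DESeq2 gave an adjusted p of 0.052. Pcdhgb7, whose exons the antisense gene Gm26672 overlaps, had 2.94 and 2.69 CPM in E47 WT and 0.988 and 1.67 in E47 KO. Its log2 change was -1.10 (edgeR adjusted p = 0.0046). That call was lost without E47 KO replicate 1 (-0.73, edgeR adjusted p = 0.096) and under DESeq2 (adjusted p = 0.074). Pcdhgb2, which shares stretches with Pcdhgb1, had 15.3 and 15.9 CPM in E47 WT and 15.6 and 16.6 in E47 KO, ranges that overlapped (log2 change 0.04, SE 0.107, edgeR adjusted p = 0.80).

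Among the 11 tested gamma A genes 2 rose and 5 fell, beside 27.7% and 27.5% of all genes tested. Pcdhga11 had 6.38 and 4.64 CPM in E47 WT and 0.416 and 0.602 in E47 KO, with the ranges far apart. It fell in the E47 knockout, with a log2 change of -3.40 (SE 0.292, edgeR adjusted p = 1.6e-07). The E12 genotypes showed the opposite order, at 0.128 and 0.299 CPM in E12 WT and 25.1 and 24.6 in E12 KO. That difference in E12 was 116-fold on the means, on 6 counts in E12 WT. The antisense gene Gm26672, whose exons overlap Pcdhga11, had 0 and 1 counts in E12 WT, 9 and 15 in E12 KO, 8 and 6 in E47 WT, and 0 and 0 in E47 KO. Its counts were thus present where Pcdhga11 was high, and without strand the reads of both cannot be told apart on the bases they share.

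Pcdhga12, at the end of the gamma A series, was high in E47 WT alone. It had 7.45 and 8.34 CPM there, 0.988 and 0.802 in E47 KO, and no more than 0.338 in the E12 libraries. Its E47 log2 change was -3.13 (SE 0.241, edgeR adjusted p = 4.7e-08). Gm26672 overlaps this gene too. Pcdhga6 had 8.31 and 7.72 CPM in E47 WT and 3.48 and 3.68 in E47 KO (log2 change -1.16, edgeR adjusted p = 0.00016). Pcdhga1 had 1.86 and 1.40 CPM in E47 WT and 3.48 and 3.94 in E47 KO and rose by 1.22 on the log2 scale (SE 0.235, edgeR adjusted p = 0.00047).

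Smaller E47 changes were found in 3 further gamma A genes, and each depended on the method or on a library. Pcdhga5 had 8.52 and 10.02 CPM in E47 WT and 12.7 and 13.2 in E47 KO (log2 change 0.46, edgeR adjusted p = 0.0045, DESeq2 adjusted p = 0.062). Pcdhga7 had 8.74 and 10.1 CPM in E47 WT and 7.12 and 5.48 in E47 KO (log2 change -0.58, edgeR adjusted p = 0.0051). Without E47 WT replicate 2 the edgeR adjusted p of Pcdhga7 was 0.090, without E47 KO replicate 2 it was 0.065, and DESeq2 gave 0.054. Pcdhga3 had 8.88 and 10.8 CPM in E47 WT and 6.39 and 7.29 in E47 KO (log2 change -0.56, edgeR adjusted p = 0.0084). Its edgeR adjusted p was 0.16 without E47 WT replicate 2 and 0.091 without E47 KO replicate 1, and DESeq2 gave 0.082. For Pcdhga2, Pcdhga4, Pcdhga8 and Pcdhga9 the E47 log2 changes were 0.33, 0.27, 0.50 and -0.13, and none passed the test (edgeR adjusted p from 0.20 to 0.80). Pcdhga9 was highest in E12 WT, with 7.27 and 8.07 CPM there, 0.434 and 0.541 in E12 KO, and between 0.572 and 1.003 in the 4 E47 libraries.

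**Figure D4:**
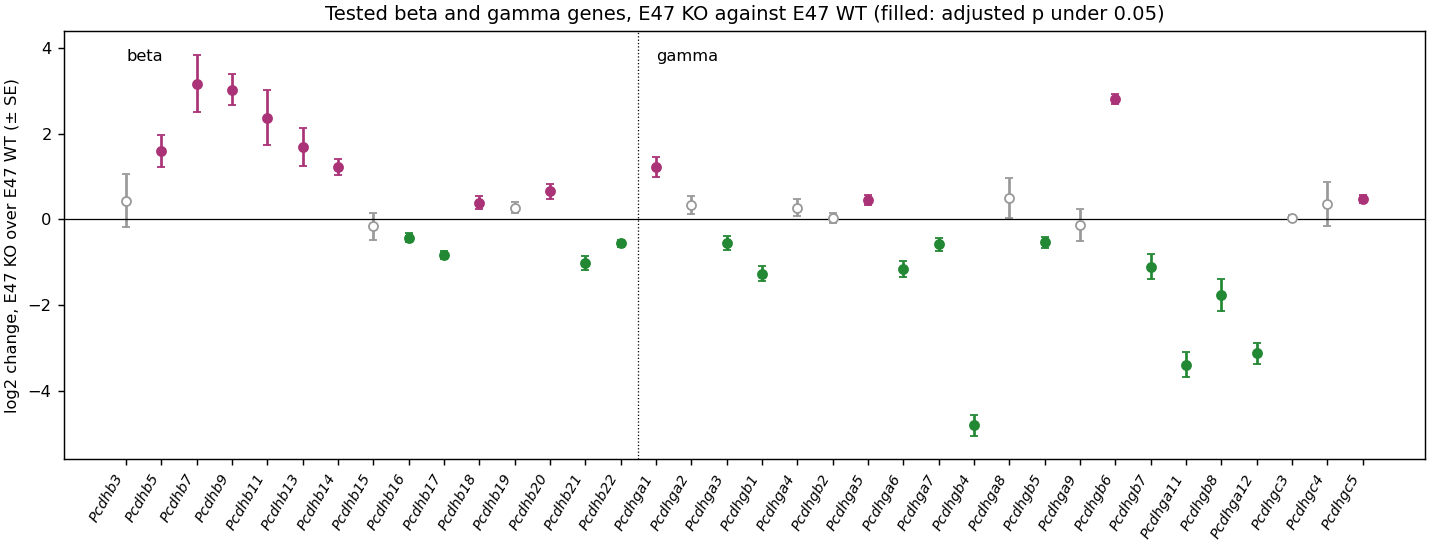
Log2 change of the 36 tested beta and gamma genes in the E47 knockout against its wild type, in order along the chromosome, with SE as bars. Filled points passed an edgeR adjusted p of 0.05, and open points did not. Beta genes from Pcdhb5 to Pcdhb14 lie above 0, and the lowest values are those of Pcdhgb4, Pcdhga11 and Pcdhga12.

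In the beta cluster 8 of the 15 tested genes rose in the E47 knockout and 4 fell, with a median log2 change of 0.44. Over all genes tested 27.7% rose and 27.5% fell. The genes that rose by most had low levels. Pcdhb9 had 0.358 and 0.312 CPM in E47 WT and 2.39 and 3.14 in E47 KO (log2 change 3.03, SE 0.363, edgeR adjusted p = 5.7e-06). Pcdhb7 had 0.0716 and 0.117 CPM in E47 WT and 0.832 and 1.14 in E47 KO (log2 change 3.17, SE 0.664, edgeR adjusted p = 0.00092). Pcdhb11 had 0.0716 and 0.117 CPM in E47 WT and 0.520 and 0.602 in E47 KO (log2 change 2.38, SE 0.652, edgeR adjusted p = 0.0062), and its adjusted p was 0.053 without E47 WT replicate 2 and 0.078 by DESeq2. Pcdhb13 and Pcdhb5 rose by 1.69 and 1.59 (edgeR adjusted p = 0.0051 and 0.0022). For Pcdhb5, whose E47 WT libraries had 1.003 and 0.390 CPM against 2.03 and 1.67 in E47 KO, leaving out E47 WT replicate 2 gave a log2 change of 0.89 (edgeR adjusted p = 0.098). Pcdhb14 went from 4.01 and 4.83 CPM to 10.4 and 10.8 (log2 change 1.23, SE 0.186, edgeR adjusted p = 5.3e-05). Pcdhb20 had 6.95 and 7.45 CPM in E47 WT and 9.88 and 13.2 in E47 KO (log2 change 0.65, edgeR adjusted p = 0.0042), and without E47 KO replicate 2 the adjusted p was 0.064. Pcdhb18 passed narrowly (log2 change 0.39, edgeR adjusted p = 0.045), and lost its call without any 1 of the 4 E47 libraries (edgeR adjusted p from 0.059 to 0.26), with other size factors (0.053) and by DESeq2 (0.22).

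The beta genes that fell in the E47 knockout were among those with the highest levels. Pcdhb17 led the cluster per kb of own exon in every genotype, at 1.87, 11.8, 8.33 and 4.73 CPM per kb in E12 WT, E12 KO, E47 WT and E47 KO. By library it had 38.5 and 39.1 CPM in E47 WT and 20.2 and 23.9 in E47 KO (log2 change -0.82, SE 0.0898, edgeR adjusted p = 2.1e-06). Pcdhb22, the last gene of the cluster, had 38.9 and 41.3 CPM in E47 WT and 26.5 and 28.3 in E47 KO (log2 change -0.56, SE 0.0866, edgeR adjusted p = 7.3e-05), and between 7.99 and 9.51 CPM in the 4 E12 libraries. Its neighbour Pcdhb21, whose exon overlaps that of Pcdhb22 on the chromosome, had 7.45 and 8.62 CPM in E47 WT and 4.37 and 3.54 in E47 KO (log2 change -1.02, edgeR adjusted p = 0.00011). Pcdhb16 had 13.8 and 14.3 CPM in E47 WT and 10.5 and 10.5 in E47 KO (log2 change -0.43, SE 0.102, edgeR adjusted p = 0.0025). Pcdhb19, Pcdhb3 and Pcdhb15 did not pass the test, with log2 changes of 0.28, 0.44 and -0.16 (edgeR adjusted p = 0.063, 0.58 and 0.70). Pcdhb1, Pcdhb2, Pcdhb4, Pcdhb6, Pcdhb8, Pcdhb10 and Pcdhb12 were too low to test, at no more than 0.869 CPM in any library.

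**Figure D5:**
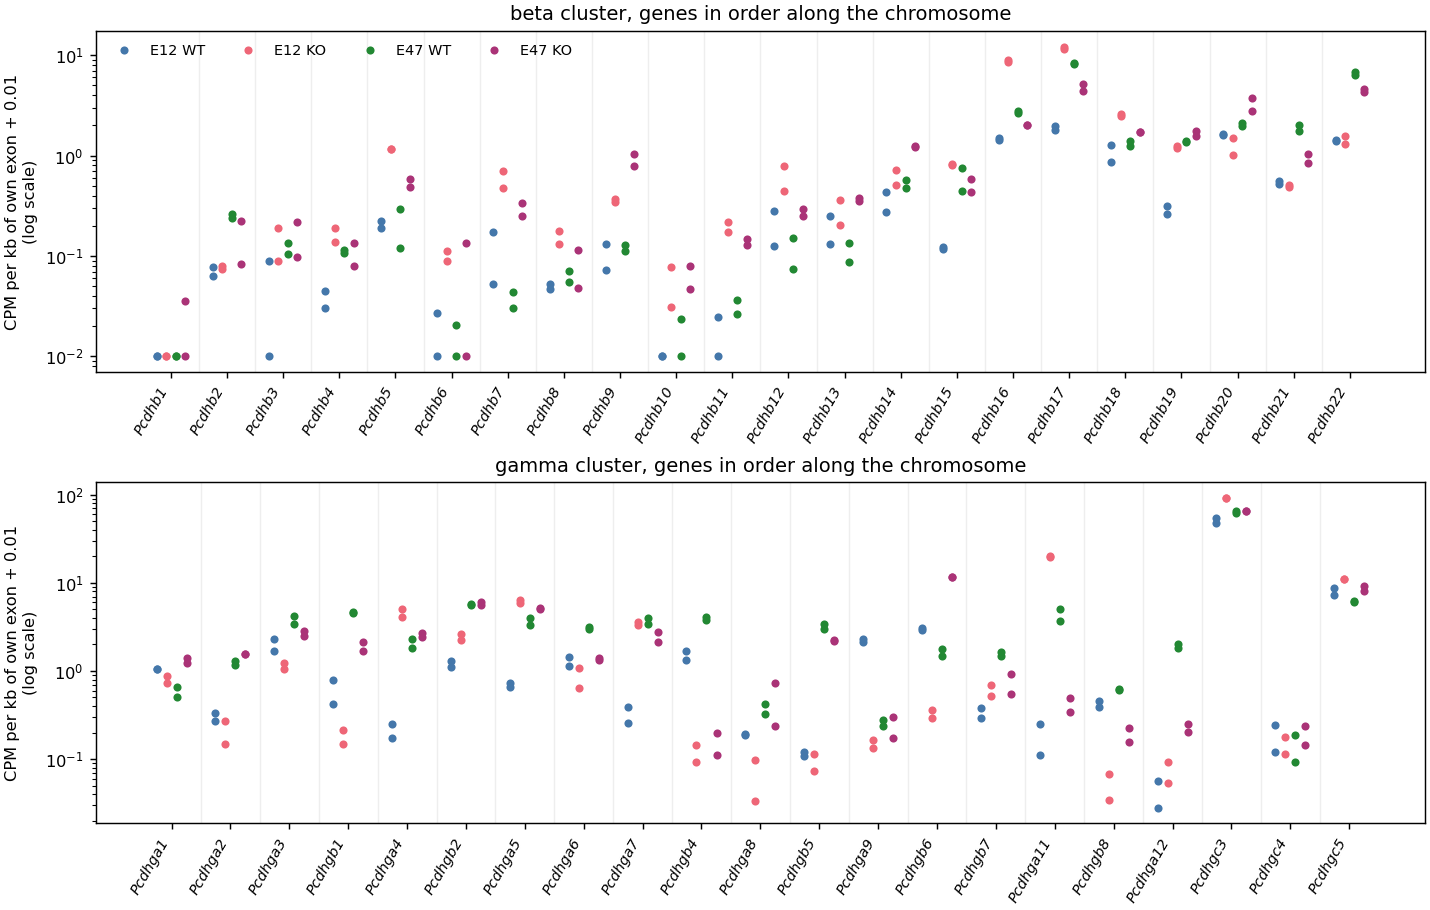
Level of each beta gene and of each gamma gene with own exon bases, in CPM per kb of own exon plus 0.01 on a log axis, 1 point per library, in order along the chromosome. Pcdhgc3 lies above all others in each genotype, and genes such as Pcdhga11, Pcdhgb4 and Pcdhga12 span more than 10-fold between genotypes.

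In the E12 comparison, both knockout libraries lay above both wild-type libraries for 20 of the 37 genes and below both for 11, and 6 overlapped, beside 35% and 36.3% of all genes tested. These counts include the genes on which the family was selected, and nothing is read from them. The mesothelial sums given above were lower in E12 KO than in E12 WT, and their part in the protocadherin levels was not tested. In the beta cluster 11 of 15 genes were above in both libraries, 2 were below and 2 overlapped. Other genes of chromosome 18 were also higher in E12 KO, with a median log2 difference of 0.54. Pcdhb16 had 7.34 and 7.70 CPM in E12 WT and 47.3 and 44.3 in E12 KO, a 6.09-fold difference of the means. Pcdhb17 had 9.12 and 8.30 CPM in E12 WT and 53.7 and 56.5 in E12 KO, a 6.33-fold difference. Both genes were thus far above their wild type in the E12 knockout and fell in the E47 knockout. Pcdhb5, Pcdhb15, Pcdhb18 and Pcdhb19 were also higher in E12 KO, by 5.87-, 7.29-, 2.38- and 4.35-fold. Pcdhb22, Pcdhb21 and Pcdhb20 did not follow, with log2 differences of 0.02, -0.10 and -0.40. Pcdhb11 had 1 count over the E12 WT libraries and 31 over those of E12 KO, a ratio of 24.1 with a 95% exact binomial counting interval from 4.02 to 982.

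In the gamma cluster 8 of 21 genes were above in both E12 KO libraries, 9 were below and 4 overlapped. Over all genes tested 35% were above and 36.3% below, and nothing is read from these counts. Beside Pcdhga11, the genes above held Pcdhga4, which had 0.255 and 0.374 CPM in E12 WT and 6.47 and 7.87 in E12 KO. They also held Pcdhga5, at 1.85 and 1.64 CPM in E12 WT and 16.1 and 14.9 in E12 KO, and Pcdhga7, at 0.638 and 0.972 against 9.07 and 8.53. The folds of the means were 22.8 for Pcdhga4, 8.88 for Pcdhga5 and 10.9 for Pcdhga7. Pcdhgb2 differed less, at 3.06 and 3.59 CPM in E12 WT and 6.23 and 7.21 in E12 KO. Pcdhgc3 and Pcdhgc5 were 1.81- and 1.39-fold higher. The genes below held Pcdhga9, Pcdhgb4, Pcdhgb8 and Pcdhgb6, which were 15.7-, 13.7-, 10.1- and 9.42-fold lower in E12 KO, and Pcdhgb1 and Pcdhga3, which were 3.48- and 1.74-fold lower. The gamma B genes together were at 19.99 ± 1.75 CPM in E12 WT and 9.94 ± 0.889 in E12 KO, and the gamma A genes at 23.4 ± 1.3 and 65.1 ± 0.718 CPM.

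Genes beside the clusters were read in the same way. In the E47 knockout 17 of 20 tested neighbours rose and 0 fell, with a median log2 change of 0.35, beside 27.7% higher and 27.5% lower of all genes tested. The list was made by hand, and over all 50 tested genes outside the family within 2 Mb of the clusters 52% rose and 20% fell, with a median of 0.23. Cd14, a receptor of innate immunity, rose by 2.62 on the log2 scale (edgeR adjusted p = 4.7e-08). Wdr55, Tmco6 and Diaph1, an actin-nucleating formin beyond the gamma cluster, rose by 0.97, 0.995 and 0.48 (edgeR adjusted p = 7.2e-07, 1.6e-05 and 2.1e-05). In the E12 comparison the median log2 difference of the 20 neighbours was 0.50, and that of the 50 genes was 0.49. Without the protocadherin genes, the median log2 difference of the 341 tested genes of chromosome 18 was 0.54 for E12, the highest of 20 chromosomes, and 0.10 for E47, where it ranked in place 6. This count by chromosome was chosen after the values were seen, and the part of the chromosome in the levels of the protocadherin genes was not tested.

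Factors known to shape promoter use in these clusters were read from lists, and more than 2-fold calls numbered 0 in both lists in the E47 comparison. Of 15 tested cohesin, CTCF and loop factors, 1 rose and 5 fell in the E47 knockout, with a median log2 change of -0.13. Over all genes tested 27.7% rose and 27.5% fell. The share of loop factors called was thus below that of all genes for rises, and not for falls. The cohesin subunit Stag2 fell by 0.70 on the log2 scale, with 144 ± 1.16 CPM in E47 WT and 88.5 ± 1.92 in E47 KO (SD, n = 2, edgeR adjusted p = 8.9e-07). Zfp143, the cohesin loader Nipbl and Ctcf fell by 0.41, 0.35 and 0.25 (edgeR adjusted p = 0.0062, 0.0068 and 0.0096). Of 25 factors of promoter silencing, 0 rose and 9 fell, with a median of -0.11. The share called was smaller than the 55.2% of all genes, but the share that fell was not below 27.5%. The heterochromatin factor Atf7ip, the repressor Rest and the DNA methyltransferases Dnmt3a and Dnmt1 fell by 0.59, 0.56, 0.75 and 0.50 (edgeR adjusted p = 1.7e-05, 2.9e-05, 3.2e-05 and 0.00022). In the E12 comparison the median log2 difference was 0.20 for the loop factors and 0.25 for the silencing factors.

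Among 24 tested partners of protocadherins, members of the WAVE actin complex and processing proteases, 8 rose and 5 fell in the E47 knockout, with a median log2 change of 0.04, near the 27.7% higher and 27.5% lower of all genes. Marcks rose from 189.9 ± 13.7 to 405 ± 26.1 CPM (log2 change 1.09, edgeR adjusted p = 5.7e-08), and the WAVE components Cyfip2 and Wasf3 rose by 1.18 and 2.28 (edgeR adjusted p = 2.0e-06 and 2.9e-05). The kinase Fyn fell by 0.79 (edgeR adjusted p = 4.6e-06). Of 12 protocadherins encoded outside the clusters, 7 were tested, and 2 rose and 1 fell in the E47 knockout. Pcdh1 rose from 26.6 ± 0.333 to 52.9 ± 2.46 CPM (log2 change 0.995, edgeR adjusted p = 1.0e-06) and Pcdh18 by 0.41 (edgeR adjusted p = 0.013). Pcdh9 fell from 13.1 ± 0.534 to 5.93 ± 0.0672 CPM (log2 change -1.13, edgeR adjusted p = 2.9e-06). Pcdh19 was at 15.2 ± 1.23 and 16.3 ± 0.391 CPM in E47 WT and E47 KO (edgeR adjusted p = 0.39), and at 8.27 ± 0.778 and 62.2 ± 5.8 CPM in E12 WT and E12 KO.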

How the data were processed

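The deposited table holds whole-number counts per gene and library, which the authors made from mRNA sequencing reads and did not normalize. Per the submitters' processing notes, FastQC, HISAT and featureCounts were used with GRCm38 (mm10). No source used here gives versions, settings or annotation. All 8 libraries were used, grouped by the labelled genotype. The genes and gene lists were chosen with earlier results of these data known.

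Counts were fitted with edgeR 4.0.16 in R 4.3.3: low counts filtered by filterByExpr, trimmed mean of M values (TMM) scaling, a 4-group model of all 8 libraries, the quasi-likelihood F test, and Benjamini-Hochberg adjustment over 13992 genes. Dispersion between libraries was low (common BCV 0.0598, 4 residual df). CPM were computed from TMM-scaled totals. On simulated counts of 13637 genes for the E47 comparison, 100 of 100 genes changed by 1 and 100 of 100 changed by 2 on the log2 scale were recovered, with 7 false calls. The changed genes were drawn from those with a mean above 2 CPM, and all genes were given the common dispersion. All other genes kept the same mean in every genotype, while 55.2% of all genes tested were called in the E47 comparison of the data. Recovery of genes at lower levels, with a larger spread, or where most genes change was not tested. The same holds for false calls where most genes change. Using raw totals in place of TMM would shift all E47 log2 changes by 0.16. Limits for 0 counts, set at 3 counts, and intervals reflect counting error alone, because PCR copies of a molecule were not marked.

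Named with values are members past the test in the E47 comparison, up to 8 members of each cluster with the highest genotype mean per length, the C-type members, and up to 4 genes of each other list with the lowest p. Other names, among them the markers, Tcf3, Pcdh19 and the overlapping genes, were chosen after values were seen. Lists are given as counts and medians. Alternatives were other size factors, DESeq2 1.42.0, no filter, the E47 libraries alone, each library left out, raw totals, other detection limits, and counts per own exon length. Marker lists of neurons, glia, smooth muscle, endothelium, fibroblasts, mesothelium and macrophages were measured.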

Additional observations from a re-analysis of the deposited data

Results flagged for a closer look

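Of the 37 tested genes, 30 had a mean of at least 2 CPM in some genotype. In 8 of these 30, both E12 knockout libraries lay on 1 side of both E12 wild-type libraries. Both E47 knockout libraries lay on the opposite side of theirs. Over all genes tested, both knockout libraries lay above both wild-type libraries for 35% in E12 and 39.2% in E47. They lay below both for 36.3% in E12 and 38.5% in E47. The share of all genes on opposite sides was not counted, so nothing is read from the number 8. The difference between the E12 and the E47 change was not tested in any of them. It is given as the E12 log2 change minus the E47 log2 change. It was 10.3 for Pcdhga11, 4.05 for Pcdhga7, 3.48 for Pcdhb17, 3.03 for Pcdhb16 and 1.97 for Pcdhgb7, which were higher in the E12 knockout and lower in the E47 knockout. It was -6.07 for Pcdhgb6, -1.63 for Pcdhga1 and -1.05 for Pcdhb20, which were lower in the E12 knockout and higher in the E47 knockout. Pcdhga11 is among the genes whose E12 KO level led to the choice of the family. Its E12 change rests on 6 counts in E12 WT. The E12 log2 changes of Pcdhgb7, Pcdhga1 and Pcdhb20 were the smallest of the 8, at 0.87 (SE 0.429), -0.41 (SE 0.238) and -0.40 (SE 0.212).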

How the results depend on the processing

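In the E47 comparison the number of protocadherin genes called higher was 12 and stayed between 9 and 12 over the alternatives, and the number called lower was 15 and stayed between 10 and 15. DESeq2 gave 9 and 10, other size factors 11 and 15, no filter 12 and 14, and the E47 libraries alone 11 and 14 with 33 of the 37 genes tested. Leaving out 1 library gave 9 to 12 higher and 12 to 14 lower, where a lone library was assumed to vary like the other groups. Among genes that did not pass the test, 5 changed sign when 1 library was left out. Their log2 changes ranged from -0.34 to 0.86 (Pcdhb3), -0.59 to 0.19 (Pcdhb15), -0.64 to 1.03 (Pcdhga8), -0.53 to 0.27 (Pcdhga9) and -0.082 to 1.14 (Pcdhgc4). All 5 changed sign without E47 KO replicate 1, and Pcdhb15 also without E47 WT replicate 1. The causes of these sign changes and of the lost calls were not tested. With raw library totals the log2 ratio of the beta total was 1.85 in place of 1.76 for E12 and -0.033 in place of -0.19 for E47, and that of the gamma total for E47 was 0.15 in place of -0.01. Per own exon length the C-type share of gamma was 79.2% in E12 WT, 71.7% in E12 KO, 60.2% in E47 WT and 64.5% in E47 KO. With at least 10 counts, 22, 27, 30 and 29 genes were detected in E12 WT, E12 KO, E47 WT and E47 KO, and with at least 1 count 38, 45, 43 and 45. No paired analysis was possible because the labels number the libraries from 1 to 8 and give no replicate number shared between genotypes. Members under 1 CPM rest on few counts, so their changes are the least precise.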

Other observations

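The cell type markers gave further values beside the protocadherin genes. The lists are short, and in the E47 comparison 27.7% of all genes tested rose and 27.5% fell. Among 12 neuron markers 5 were tested in the E47 comparison, and 4 of them rose: Syt1, a calcium sensor of secretory vesicles, by 2.91 on the log2 scale, Gap43 by 1.13, the microtubule protein Map2 by 0.78 and Tubb3 by 0.19 (edgeR adjusted p = 3.7e-06, 0.031, 1.9e-05 and 0.046). Map2 was at 242 ± 25.03 CPM in E12 WT, 94.9 ± 12.6 in E12 KO, 81.1 ± 0.88 in E47 WT and 139.5 ± 19.9 in E47 KO (SD, n = 2). Of 9 Schwann cell and glia markers 4 were tested and 3 rose, with Mbp at 0.524 ± 0.0314 CPM in E47 WT and 7.51 ± 0.697 in E47 KO (edgeR adjusted p = 4.5e-09). Sox10, Cdh19 and Foxd3 were at or below 0.0358 CPM on the mean in every genotype.

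Of 6 fibroblast markers, 3 rose and 1 fell in the E47 knockout, beside 27.7% and 27.5% of all genes tested. Dcn, a small matrix proteoglycan, was at 2.05 ± 0.141 CPM in E47 WT and 94.6 ± 6.08 in E47 KO (edgeR adjusted p = 3.0e-13), while Pdgfra fell by 0.71 on the log2 scale (edgeR adjusted p = 0.0023). Of 6 macrophage markers 4 were tested, 1 rose and 2 fell. Ptprc, the leukocyte marker CD45, was below 0.1 CPM on the mean in every genotype. Of 8 smooth muscle markers 7 fell and 1, Myocd, rose by 1.30 (edgeR adjusted p = 8.6e-06).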
